A study of Mus musculus with 6 samples.

Results

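The genes examined are those for the nuclear-encoded subunits of the mitochondrial respiratory chain and ATP synthase, in livers of wild-type mice and of mice that lack SRC-2, the nuclear receptor coactivator encoded by Ncoa2. Members were chosen by gene symbol alone: probe sets with exactly 1 symbol that starts with Ndufa, Ndufb, Ndufc, Ndufs, Ndufv, Uqcr, Cox4, Cox5, Cox6, Cox7, Cox8 or Atp5, or that is Sdha, Sdhb, Sdhc, Sdhd or Cyc1. This gave 180 probe sets for 91 genes, out of 34958 single-symbol probe sets for 18194 genes and 45101 probe sets in all. By complex there were 34 genes of complex I, 4 of complex II, 9 of complex III, 16 of complex IV and 17 of complex V. The prefix Ndufa also takes in 8 assembly factors of complex I (the Ndufaf genes), and 3 genes were kept apart from the complexes, namely Ndufa4, now counted with complex IV, its paralogue Ndufa4l2, and the supercomplex factor Cox7a2l.

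Both groups were female mice of C57 background whose ovaries were removed at 6 weeks of age and whose livers were taken 2 weeks later and flash-frozen. One group was wild-type and the other SRC-2 null, with 3 arrays each. Lack of ovarian hormones is therefore common to all 6 arrays. The labels do not describe the SRC-2 allele, nor do they say whether the numbered replicates were separate animals, so the p-values speak only to the scatter among these 6 arrays, part or all of which may be technical.

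The respiratory chain sits in the inner mitochondrial membrane. Complex I (NADH dehydrogenase) and complex II (succinate dehydrogenase) pass electrons to ubiquinone, complex III passes them on to cytochrome c, and complex IV (cytochrome c oxidase) hands them to oxygen. Complexes I, III and IV pump protons, and complex V (ATP synthase) uses the proton gradient to make ATP. Hepatocytes are rich in mitochondria and rely on the chain for fatty acid oxidation, glucose production and urea synthesis. Transcription of many subunit genes depends on the factors NRF1, GABPA and the estrogen-related receptors, with the PGC-1 coactivators.

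All values are log2 expression values from short oligonucleotide arrays, and differences are SRC-2 null minus wild-type. For each gene the probe set with the highest mean was used, and genes with a mean under 4.21, the median of all probe sets, were left out, which left 11895 genes. Ncoa2 was 5.41-fold lower in null liver (limma adjusted p = 0.000354), and its 3 null values lay below its 3 wild-type values. The 14 hepatocyte markers tested had mean levels of 13.39 to 13.41 on the wild-type and 13.37 to 13.38 on the null arrays, and 0 were called (0 at an unadjusted p under 0.05 by limma). Replicate 3 of both genotypes stood apart from replicates 1 and 2: its deviations from the group means correlated at 0.517 between the genotypes over genes, and at -0.266 to -0.344 with those of the other replicates of the other genotype. Values within replicates 1 and 2 and within replicate 3 are therefore given for the complexes and for a number of single genes. Of the 91 member genes 87 passed the filter on dim genes. Cox4i2, Cox7a1, Cox7b2 and Ndufb4, the last represented by a dim probe set only, did not.

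No respiratory chain gene passed the test. Of the 87 tested, 0 were called in either direction at an adjusted p under 0.05, where 4.67% of all tested genes were called, 1.55% higher and 3.13% lower in null liver. At an unadjusted p under 0.05 there were 8 members, all higher in null liver, against 17.2% of all genes in either direction and 7.58% upward. The differences were small and lay largely on the same side of 0: 82 of 87 members (94.3%) had a log2 fold change above 0, against 50.6% of all tested genes. The median over the members was 0.12, a fold of 1.08, where the median over all tested genes was 0.00. The lowest member was Uqcrq at -0.10 and the highest Cox8b at 0.46.

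The arrays were precise enough to bound these differences. For 85 of the 87 members, and for 86.6% of all tested genes, the 95% interval of the log2 fold change lay within 1.5-fold either way. The exceptions among the members were Cox8b and the assembly factor gene Ndufaf3, whose upper bounds were 0.87 and 0.60. No member had a lower bound beyond a 1.5-fold decrease. The intervals of 8 members did not include 0.

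**Figure D1:**
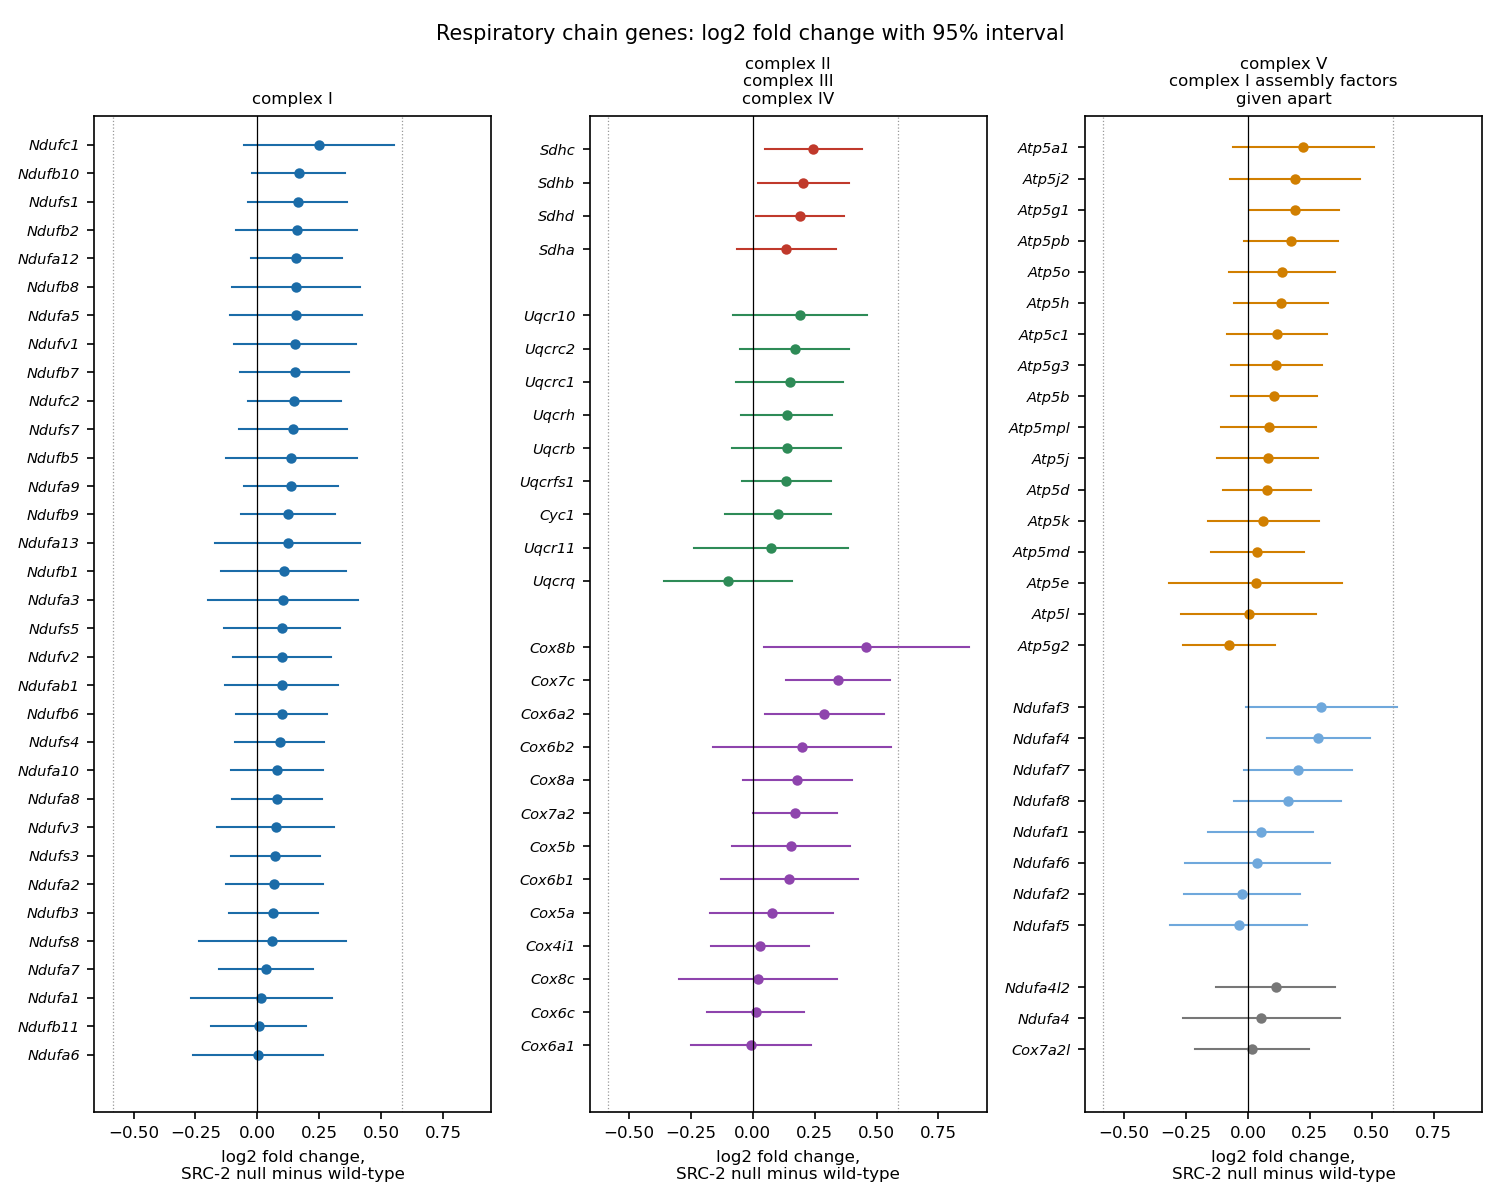
Log2 fold change (SRC-2 null minus wild-type, horizontal axis) of each of the 87 tested genes, by complex, as a point with its 95% interval as a line; the solid vertical line marks 0 and the dotted lines 1.5-fold either way. In 82 of 87 genes the point lies to the right of 0, and the intervals of Cox8b and Ndufaf3 alone cross a dotted line.

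Complex II showed the highest median of the 5 complexes, 0.20, and the narrowest range, 0.14 to 0.25. Its 4 subunits are all nuclear-encoded, and the complex works in both the citric acid cycle and the chain. Sdhb encodes the iron-sulfur subunit. It read 11.08, 11.07 and 11.03 on the wild-type arrays and 11.19, 11.34 and 11.27 on the null arrays, so that the groups did not overlap. Its log2 fold change was 0.20 (SE 0.080, limma adjusted p = 0.242).

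Sdhc and Sdhd encode the membrane anchors that bind ubiquinone. Sdhc read 9.77, 9.83 and 9.94 in wild-type and 10.02, 10.13 and 10.12 in null liver, a log2 fold change of 0.25 (SE 0.085, limma adjusted p = 0.186). Sdhd read 10.21, 10.16 and 10.12 in wild-type and 10.37, 10.37 and 10.31 in null liver, a log2 fold change of 0.19 (SE 0.077, limma adjusted p = 0.257). In both genes every null array lay above every wild-type array, but neither passed the test. Sdha encodes the flavoprotein subunit that oxidises succinate. It read 11.08, 11.08 and 10.97 in wild-type and 11.26, 11.21 and 11.08 in null liver, with null replicate 3 below the highest wild-type array (difference 0.14, limma adjusted p = 0.498).

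The further probe sets of these genes gave smaller differences. A second set of Sdhc had a log2 fold change of 0.14 and a second set of Sdhd 0.16. For Sdha, 2 more sets above the filter stood at -0.028 and 0.13. With every probe set counted the median of complex II was 0.15.

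**Figure D2:**
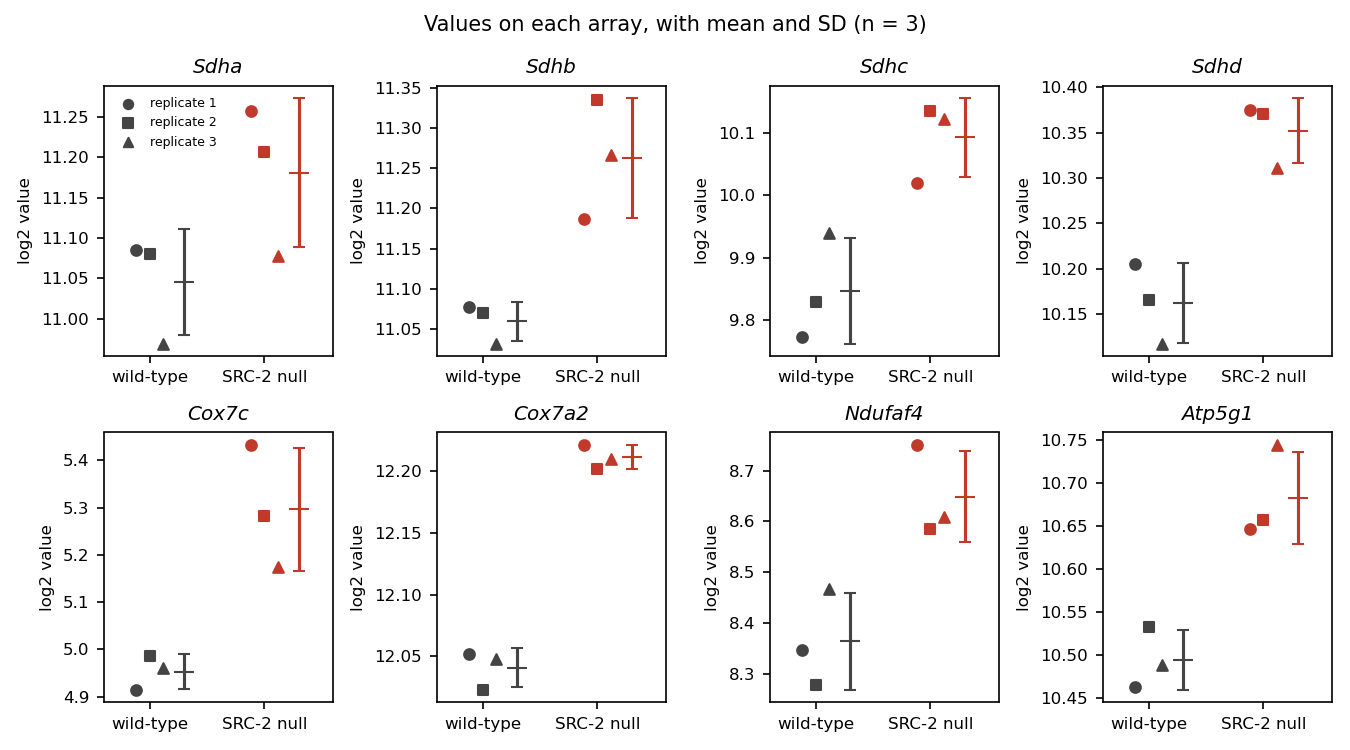
Log2 values of 8 genes on each array (vertical axis, with its own range in each panel), wild-type in grey and SRC-2 null in red, with the mean and SD (n = 3) beside the points and the marker shape giving the replicate number. The null points lie above all wild-type points in every panel except that of Sdha. The genes shown outside complex II are all among the 20 members without overlap, 23.0% of those tested. The share was 10.8% over all tested genes and 21.2% over the 660 genes outside the chain with a mean of 10 or more.

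The upstream sequences of complex II genes are shown because this complex had the highest median. They are the 150 bases before the annotated start in RefSeq (GRCm38.p6), on the strand of the gene, at chr13:74350241-74350390 (minus strand) for Sdha, chr4:140961121-140961270 (plus strand) for Sdhb and chr9:50603850-50603999 (minus strand) for Sdhd. Sdhc had no entry. Capitals mark matches, on either strand, to the core of the NRF1 motif (GCGCA and GCGC with any base between them) or to CCGGAAG, an ETS motif that GABPA can bind.
Sdha: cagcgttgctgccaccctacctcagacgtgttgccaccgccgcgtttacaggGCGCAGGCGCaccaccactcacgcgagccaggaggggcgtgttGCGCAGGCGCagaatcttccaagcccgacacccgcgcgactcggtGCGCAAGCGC
Sdhb: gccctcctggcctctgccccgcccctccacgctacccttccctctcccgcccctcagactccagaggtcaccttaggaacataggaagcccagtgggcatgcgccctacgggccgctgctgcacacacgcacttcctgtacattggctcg
Sdhd: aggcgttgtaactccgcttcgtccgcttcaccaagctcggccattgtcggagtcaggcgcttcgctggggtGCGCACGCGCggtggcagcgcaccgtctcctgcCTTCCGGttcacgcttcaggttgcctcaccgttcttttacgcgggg

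Sdha held 3 NRF1 matches, Sdhd 1 NRF1 and 1 ETS match, and Sdhb none of these letters. Over the 250 bases before the start, 74 of the 91 member genes had at least 1 promoter in the table, 79 promoters in all. The NRF1 core stood in 16.5% of these and in 3.74% of all 32851 promoters. The ETS motif stood in 17.7% against 6.91%. AAGGTCA, the core bound by estrogen-related receptors, which can overlap the ETS motif by its first bases, stood in 6.33% against 4.08% and in none of the 3 complex II promoters. These are matches of letters and not sites of binding, and the data hold no measurement at promoters.

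Complex I, the largest complex, had a median log2 fold change of 0.10 over 33 tested genes, with every value above 0 and the range from 0.003 to 0.25. None had an unadjusted p under 0.05. The 6 core subunits measured, which have bacterial counterparts and between them, though not each, carry the flavin and iron-sulfur centres, had a median of 0.12. The 27 accessory subunits had a median of 0.10. The largest difference was that of Ndufc1, an accessory subunit, with values of 9.92, 9.84 and 10.09 in wild-type and 10.01, 10.12 and 10.46 in null liver. Its groups overlapped, and the log2 fold change of 0.25 (SE 0.13, limma adjusted p = 0.396) was 0.18 within replicates 1 and 2 and 0.38 within replicate 3.

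In 7 of the 33 complex I genes tested (21.2%) the null arrays all lay above the wild-type arrays. The share was 10.8% over all tested genes and 21.2% over the 660 genes outside the chain with a mean of 10 or more. The 7 genes were Ndufa9, Ndufa12, Ndufb9, Ndufb10, Ndufc2, Ndufs1 and Ndufs4. Ndufb10 is an accessory subunit of the membrane arm. It read 9.85, 9.73 and 9.84 against 9.93, 9.95 and 10.04, a log2 fold change of 0.17 (SE 0.082, limma adjusted p = 0.352). Ndufa12, another accessory subunit, read 10.88, 10.78 and 10.82 against 10.98, 10.93 and 11.04, a log2 fold change of 0.16. Ndufs1, the largest core subunit, read 9.46, 9.45 and 9.39 against 9.60, 9.70 and 9.49, also 0.16, with 0.20 within replicates 1 and 2 and 0.093 within replicate 3. At the other end, Ndufa6, Ndufb11 and Ndufa1, all accessory subunits, had log2 fold changes of 0.003, 0.005 and 0.017, and their signs turned when single arrays were left out.

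The assembly factors of complex I, which are not part of the finished complex, had a median of 0.11 over 8 genes, with 6 above 0. Ndufaf4 read 8.35, 8.28 and 8.47 in wild-type and 8.75, 8.59 and 8.61 in null liver, without overlap (log2 fold change 0.28, SE 0.091, limma adjusted p = 0.151). Ndufaf3, which works with Ndufaf4 early in assembly, had a log2 fold change of 0.30 (SE 0.13, limma adjusted p = 0.307). Wild-type replicate 3 and null replicate 3 both read high for Ndufaf3, at 7.46 and 7.73, against 7.08 and 7.13 on the other wild-type and 7.39 and 7.45 on the other null arrays. With the term for replicate 3 against replicates 1 and 2 in the model, Ndufaf3 and Cox7c were the members called, where 8.26% of all genes were. Ndufaf4 had 0.36 within replicates 1 and 2 and 0.14 within replicate 3. Ndufaf2 and Ndufaf5 stood at -0.023 and -0.038, but at 0.028 and 0.078 within replicates 1 and 2 and at -0.12 and -0.27 within replicate 3.

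Complex III had a median of 0.14 over 9 genes, 8 of them above 0. Uqcrfs1 encodes the Rieske iron-sulfur protein. It read 10.77, 10.73 and 10.74 in wild-type and 10.87, 10.95 and 10.83 in null liver, without overlap (log2 fold change 0.14 with an SE of 0.078, limma adjusted p = 0.440). The hinge protein gene Uqcrh did not overlap either, with a log2 fold change of 0.14. Cyc1, which encodes cytochrome c1, had a log2 fold change of 0.10, and the core protein genes Uqcrc1 and Uqcrc2 had 0.15 and 0.17. Uqcr10, a small subunit, stood at 0.19, the highest of the complex.

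Uqcrq, which encodes a small subunit that binds ubiquinone, was the lowest member of all, at 11.08, 11.11 and 11.23 in wild-type and 10.87, 11.00 and 11.25 in null liver (log2 fold change -0.10, limma adjusted p = 0.721). Within replicates 1 and 2 it stood at -0.16 and within replicate 3 at 0.020. Its direction also rested on the probe set: 3 other sets, all of low signal, stood at 0.024, 0.15 and 0.22.

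Complex IV had a median of 0.16 over 13 genes, 12 of them above 0, and the widest spread. Cox7c, a small structural subunit, had the smallest adjusted p of all members. It read 4.91, 4.99 and 4.96 in wild-type and 5.43, 5.28 and 5.17 in null liver, without overlap (log2 fold change 0.34 with an SE of 0.092, limma adjusted p = 0.0840). The set used for Cox7c gave a signal near the filter value, and the other set of this gene, below the filter, stood at -0.30. The difference was 0.41 within replicates 1 and 2 and 0.21 within replicate 3. Cox7a2, the form of subunit 7a found in most tissues, had the smallest SE in complex IV, with 12.05, 12.02 and 12.05 against 12.22, 12.20 and 12.21 (log2 fold change 0.17, with an SE of 0.074 and a limma adjusted p = 0.293).

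The other subunits of complex IV found in most tissues lay on both sides of the median. Cox8a stood at 0.18, Cox5b at 0.16 and Cox6b1 at 0.15. Cox5b had 4 further sets above the filter, at 0.20, 0.21, 0.21 and 0.22. Cox4i1, which encodes the regulatory subunit 4, stood at 0.030, Cox6c at 0.012 and Cox6a1 at -0.008. The signs of Cox4i1, Cox6c and Cox6a1 changed when single arrays were left out.

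Isoforms of complex IV typical of other tissues were measured as well. Cox6a2 and Cox8b are forms of heart and skeletal muscle, and Cox8b also of brown fat. Cox6a2 read 5.70, 6.03 and 5.78 in wild-type and 6.06, 6.19 and 6.12 in null liver, with a gap between the groups (log2 fold change 0.29, SE 0.10, limma adjusted p = 0.204). Cox8b read 4.17, 4.44 and 4.04 in wild-type and 4.59, 4.37 and 5.06 in null liver (log2 fold change 0.46, SE 0.18, limma adjusted p = 0.242). Its difference was 0.18 within replicates 1 and 2 and 1.02 within replicate 3, where null replicate 3 alone read above 5. Cox7a1, the muscle form of subunit 7a, lay below the filter at 3.78, 3.53 and 3.75 in wild-type and 3.90, 3.59 and 4.58 in null liver, again with null replicate 3 high.

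Cox6b2 and Cox8c, forms of testis, stood at 0.20 and 0.021, and the testis form Cox7b2 lay below the filter, with means of 2.62 and 2.95. Cox4i2, the form of subunit 4 known from lung, lay below it too. Their partners in most tissues are Cox6a1, Cox8a, Cox7a2, Cox6b1 and Cox4i1, given above. Of the genes kept apart from the complexes, Ndufa4 stood at 0.053, Ndufa4l2 at 0.11 and Cox7a2l at 0.017.

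Adipocyte markers were also higher on the null arrays. Of 8 adipocyte genes 4 were bright enough in the mean of all arrays to test, and 2 were called, both higher. They were Fabp4, a fatty acid-binding protein, 3.31-fold, and Cidea, a lipid droplet protein, 2.91-fold (limma adjusted p = 0.000272 and 0.000555). Cidea read 3.39, 3.85 and 3.63 in wild-type liver, all below the filter value, and passed the filter only through its null values. The mean level over the 4 tested adipocyte genes was 4.77 to 4.96 on the wild-type and 5.76 to 5.98 on the null arrays. Ucp1, the uncoupling protein of brown fat, read 4.62, 4.24 and 4.70 against 4.98, 4.96 and 5.29, and did not pass (limma adjusted p = 0.0733). Adipoq, the adiponectin gene, was below the filter in the mean and was not tested. It read 2.92, 2.97 and 3.01 in wild-type and 4.88, 4.99 and 5.42 in null liver, highest on null replicate 3. Fabp4 and Ucp1 were also highest on null replicate 3. Cidea (null values of 4.96, 5.33 and 5.22) and the marker Retn (4.98, 5.18 and 5.11) were highest on null replicate 2. Lep, also below the filter, had means of 2.74 in wild-type and 2.82 in null liver and was highest on null replicate 1. The 4 skeletal and heart muscle markers tested had mean levels of 4.64 to 4.79 and 4.61 to 4.71, with 0 called by limma (0 had an unadjusted p under 0.05), and Acta1, skeletal muscle actin, had means of 3.28 and 3.29. The part of other cell types in the values of these isoforms was not tested.

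**Figure D3:**
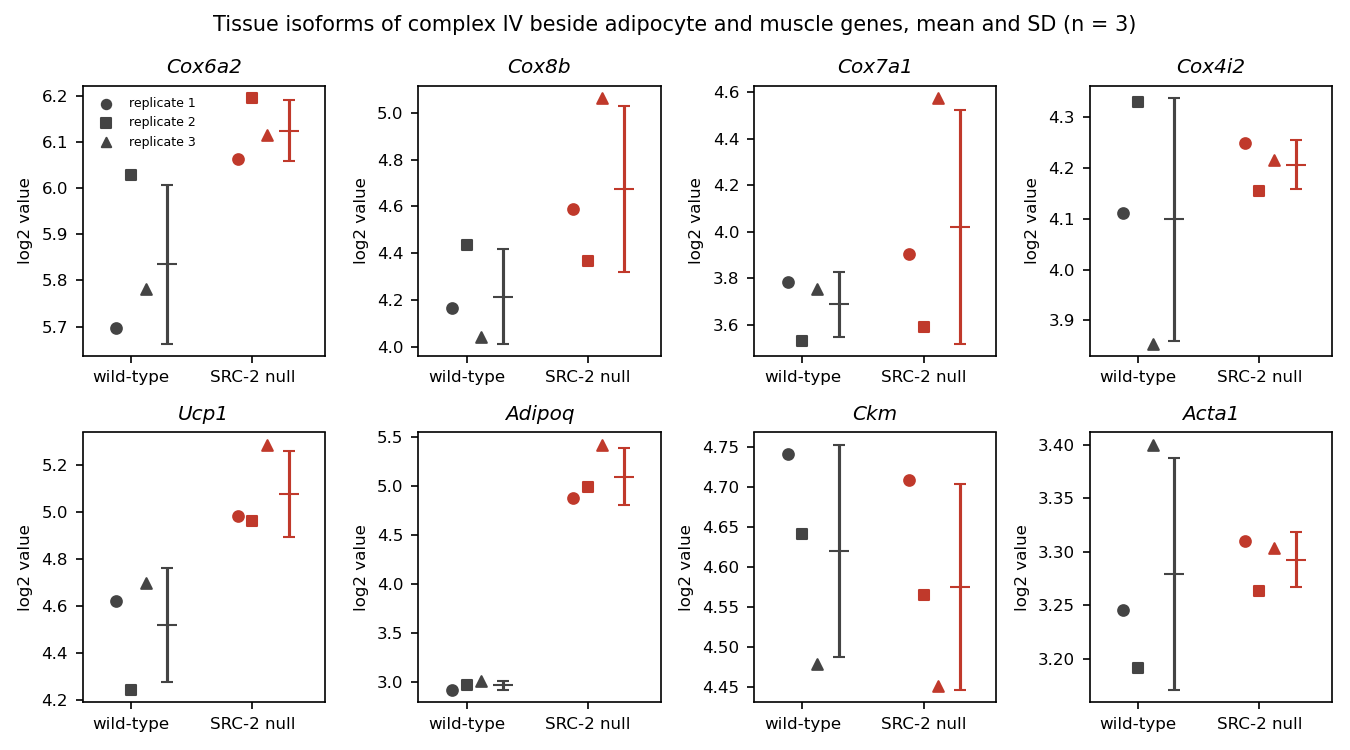
Log2 values on each array (vertical axis, with its own range in each panel) of 4 tissue isoforms of complex IV, 2 adipocyte genes (Ucp1 and Adipoq) and 2 muscle genes (Ckm and Acta1), wild-type in grey and SRC-2 null in red, with the mean and SD (n = 3). Null replicate 3, a triangle, is the highest null point for Cox8b, Cox7a1, Ucp1 and Adipoq, and null replicate 2 for Cox6a2. The points of Ckm and Acta1 overlap between the genotypes.

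Complex V had a median of 0.11 over 17 genes, 16 of them above 0. The 5 genes of the catalytic F1 part had a median of 0.11. Atp5a1, the alpha subunit, read 11.89, 11.98 and 11.56 in wild-type and 12.08, 12.12 and 11.91 in null liver, where replicate 3 was the lowest of each genotype (log2 fold change 0.22, SE 0.12, limma adjusted p = 0.423). Atp5b, the beta subunit, had a log2 fold change of 0.11 with no overlap between the groups. The 9 genes of the stalks and the membrane part had a median of 0.08. Among these Atp5pb, the b subunit of the peripheral stalk, read 11.29, 11.23 and 11.37 against 11.46, 11.41 and 11.53, a log2 fold change of 0.17 (SE 0.082, limma adjusted p = 0.336). Atp5j2 stood at 0.19.

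The c ring that turns in the membrane is built from a single mature protein encoded by 3 genes, and they are described one by one. Atp5g1 read 10.46, 10.53 and 10.49 in wild-type and 10.65, 10.66 and 10.74 in null liver, without overlap (log2 fold change 0.19, SE 0.078, limma adjusted p = 0.266). Atp5g3 read 12.42, 12.40 and 12.40 against 12.50, 12.60 and 12.46, also without overlap (log2 fold change 0.11, limma adjusted p = 0.538). Atp5g2 read 10.23, 10.14 and 10.13 against 10.07, 10.15 and 10.03, with overlap, and stood at -0.077 (SE 0.081, limma adjusted p = 0.702). With the mean of all its probe sets Atp5g2 stood at 0.025. Differences between the 3 genes were not tested.

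Counted over the complexes, the null arrays lay above all wild-type arrays in 20 members, 23.0% of those tested, where 10.8% of all tested genes did so. They were 7 of 33 genes of complex I, 3 of 4 of complex II, 2 of 9 of complex III, 3 of 13 of complex IV, 4 of 17 of complex V and 1 of 8 assembly factors. The reverse order, all null below all wild-type arrays, was found in 0 members and in 12.5% of all genes. Among genes with a mean of 10 or more, all null arrays lay above in 20.3% of the 64 members and 21.2% of the 660 others. At that signal the 2 shares were thus alike, while the reverse order was found in 0% and 27.0%. When arrays were matched by replicate number, null was higher in all 3 pairs for 57 members (65.5%), against 22.9% of all genes. With a mean of 10 or more these shares were 68.8% and 33.6%.

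Array by array, the complexes differed in how well the genotypes separated. The mean deviation of the complex II genes from their own 6-array means was -0.090, -0.089 and -0.11 on the wild-type and 0.085, 0.137 and 0.069 on the null arrays. For complex I it was -0.079, -0.10 and 0.019 on the wild-type and -0.026, 0.023 and 0.17 on the null arrays. Here null replicate 1 lay below wild-type replicate 3, so the groups overlapped, and replicate 3 was the highest array of each genotype.

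Complex III gave -0.061, -0.073 and -0.032 against -0.039, 0.087 and 0.12, an overlap of null replicate 1 with wild-type replicate 3. Complex IV gave -0.11, -0.051 and -0.080 against 0.004, 0.056 and 0.18, with no overlap. This rested on its 4 dim tissue isoforms. The other 9 genes gave -0.088, -0.10 and 0.0075 against -0.0073, 0.026 and 0.17, where null replicate 1 lay below wild-type replicate 3. Complex V gave -0.047, -0.066 and -0.035 against -0.031, 0.068 and 0.11, where null replicate 1 lay just above the highest wild-type array. Over all tested genes the same quantity was -0.024, -0.0098 and 0.053 against -0.032, -0.020 and 0.032, so replicate 3 was the highest array of each genotype there too.

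**Figure D4:**
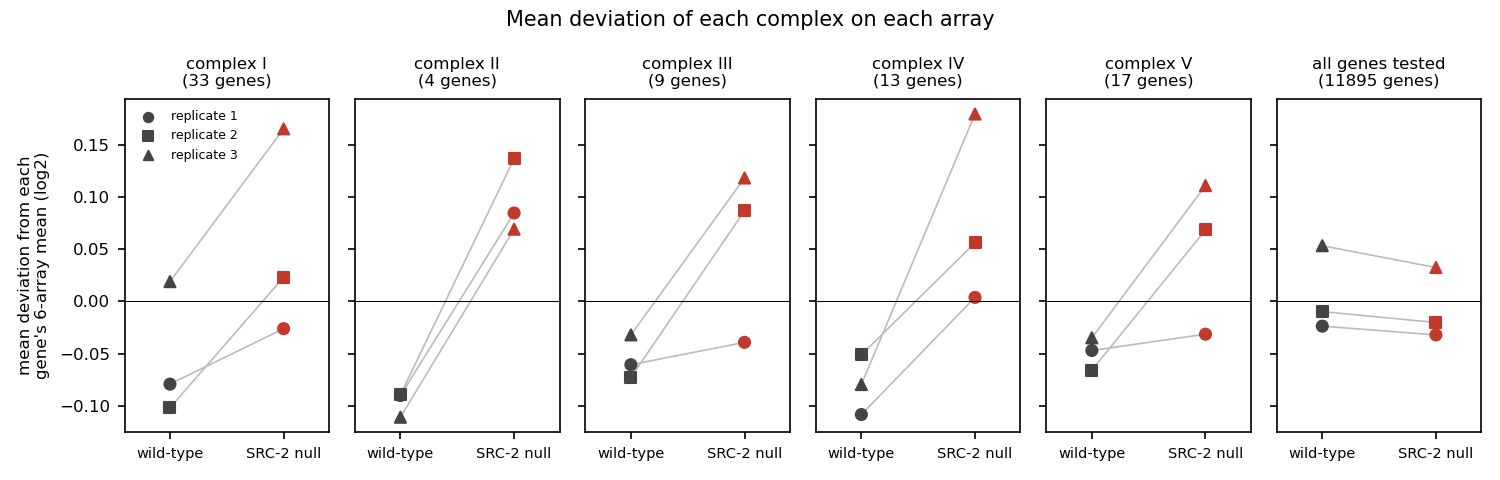
Mean over the genes of each complex, and over all tested genes, of the deviation from each gene's 6-array mean (log2, vertical axis), for wild-type and SRC-2 null arrays, with grey lines joining arrays of the same replicate number. Complex II and complex IV show no overlap of the genotypes, complex V a gap of 0.035 below 0 against 0.031 below 0, and complexes I and III an overlap at null replicate 1. Without its 4 tissue isoforms (not drawn) complex IV also overlapped at null replicate 1.

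The median of each complex stayed above 0 within replicates. Within replicates 1 and 2 the medians were 0.10, 0.19, 0.12, 0.095 and 0.076 for complexes I to V, and within replicate 3 they were 0.13, 0.19, 0.16, 0.19 and 0.16. The numbers of members above 0 were 74 and 83 of 87. Complex II had the same median in both, while those of complexes I, III, IV and V were higher in replicate 3. Without null replicate 3 the median over all members was 0.08, with 63 of 87 above 0 and 46.6% of all genes above 0. The order of the complexes was not fixed: complex II led in the pooled values, and complex IV led when every probe set was counted or null replicate 2 was left out. No test of the difference between complexes was made, since the 4 to 33 genes of a complex are not replicates of the genotype.

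Of the 180 member probe sets 161 were above the filter. Tested each on its own, 0 were called, with a smallest adjusted p of 0.143 in limma, where 2.41% of all such sets were called. In these sets 146 of 161 stood above 0, and 12 had an unadjusted p under 0.05, all higher in null liver. Of 46 genes with several sets above the filter, 36 had all sets on the same side of 0. The sets lay on both sides for 10 genes: Cox6a1, Cox7a2l, Ndufa7, Ndufab1, Ndufb2, Ndufb8, Ndufb11, Ndufs4, Sdha and Uqcrq. For Ndufb2 and Ndufb8 the opposite sign came from sets of low signal, at -0.17 and -0.15, against 0.16 for the sets used. Of the 87 genes 18 were measured with probe sets that can detect several related transcripts, a limit for families with near-identical copies.

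Bright genes outside the chain lay evenly about 0. Of 660 other tested genes with a mean of 10 or more, 49.8% were above 0 and the median log2 fold change was -0.002. The 64 members with a mean of 10 or more had a median of 0.12, and the 23 members under 10 had 0.16.

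Other genes of the mitochondrion gave a mixed picture. Of 13 citric acid cycle genes tested 1 was higher and 1 lower, with 10 above 0 and a median of 0.13. Dlst, a subunit of the oxoglutarate dehydrogenase complex, rose 1.38-fold (limma adjusted p = 0.0161), from 9.40, 9.38 and 9.40 to 9.84, 9.79 and 9.95. This rested on the brightest of its 3 probe sets, at a log2 fold change of 0.46, and the others stood at 0.080 and 0.062. Of the 6 fits that each omitted an array, the call was kept in 2, those without wild-type 3 and without null 2, with adjusted p between 0.0501 and 0.0827 in the rest (limma). Cs, the citrate synthase gene, fell 1.47-fold (limma adjusted p = 0.0261), from 9.08, 9.17 and 9.18 to 8.36, 8.67 and 8.72. Its 3 probe sets all stood below 0 and none was called when each was tested, and the call held only without null replicate 3 among the fits that left out 1 array. Mdh2, malate dehydrogenase, had a log2 fold change of 0.33 (limma adjusted p = 0.0549).

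Among 17 genes of electron carriers and ubiquinone synthesis, 1 was higher and 2 were lower, with a median of 0.06. Coq7, the hydroxylase of a late step of ubiquinone synthesis, rose 1.74-fold from 7.93, 7.90 and 7.85 to 8.60, 8.67 and 8.79 (limma adjusted p = 0.00124), and kept its call whichever array was left out. Gpd2, the mitochondrial glycerol phosphate dehydrogenase that feeds electrons to ubiquinone, fell 1.67-fold from 7.56, 7.22 and 7.32 to 6.44, 6.68 and 6.76 (limma adjusted p = 0.0129). Both of its probe sets were called, and the call was lost without null replicate 1 (adjusted p = 0.0501 in limma). Coq10a, a ubiquinone-binding protein gene, fell 1.35-fold (limma adjusted p = 0.0279), a call that needed all 6 arrays. Among genes of the list that did not pass, Cycs, the cytochrome c gene, stood at 0.28, and Etfb and Etfdh, of the electron-transferring flavoprotein route to ubiquinone, at 0.19 and 0.12.

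Of 36 other assembly factors of the chain 1 was called, Atpaf1, a factor for the F1 part of ATP synthase, which rose 1.28-fold (limma adjusted p = 0.0470), a call that needed all 6 arrays. The list had 27 of 36 above 0 and a median of 0.08. Among 11 inner membrane carriers, porins and uncoupling proteins, Slc25a11, the oxoglutarate carrier, rose 1.33-fold (limma adjusted p = 0.0305, a call that needed all 6 arrays), 10 were above 0 and the median was 0.12. The ADP/ATP carrier genes Slc25a4 and Slc25a5 both stood at 0.12.

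Of 14 regulators of mitochondrial biogenesis 2 were called, with 6 above 0 and a median of -0.014. Esrra, which encodes the estrogen-related receptor alpha, rose 1.32-fold from 7.17, 7.29 and 7.05 to 7.56, 7.58 and 7.56 (limma adjusted p = 0.0427). Tfb1m, a mitochondrial rRNA methyltransferase gene, rose 1.30-fold (limma adjusted p = 0.0466). Both calls needed all 6 arrays, and none of their probe sets was called when each was tested. Ppargc1a and Ppargc1b, the PGC-1 coactivators, stood at 0.005 and -0.072, Nrf1 at -0.032, Gabpa at 0.092 and Tfam at -0.011, none of which passed.

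Ribosomal proteins of the mitochondrion and of the cytosol formed separate lists. Of 41 mitochondrial ribosomal protein genes 25 were above 0, with a median of 0.01 and 0 called by limma (2 had an unadjusted p under 0.05). Of 17 cytosolic ribosomal protein genes tested 2 were above 0, with a median of -0.14 and 0 called by limma (2 had an unadjusted p under 0.05). The largest difference of these was that of Rpl7, at -0.28 (limma adjusted p = 0.140). None of these lists was tested against the members.

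**Figure D5:**
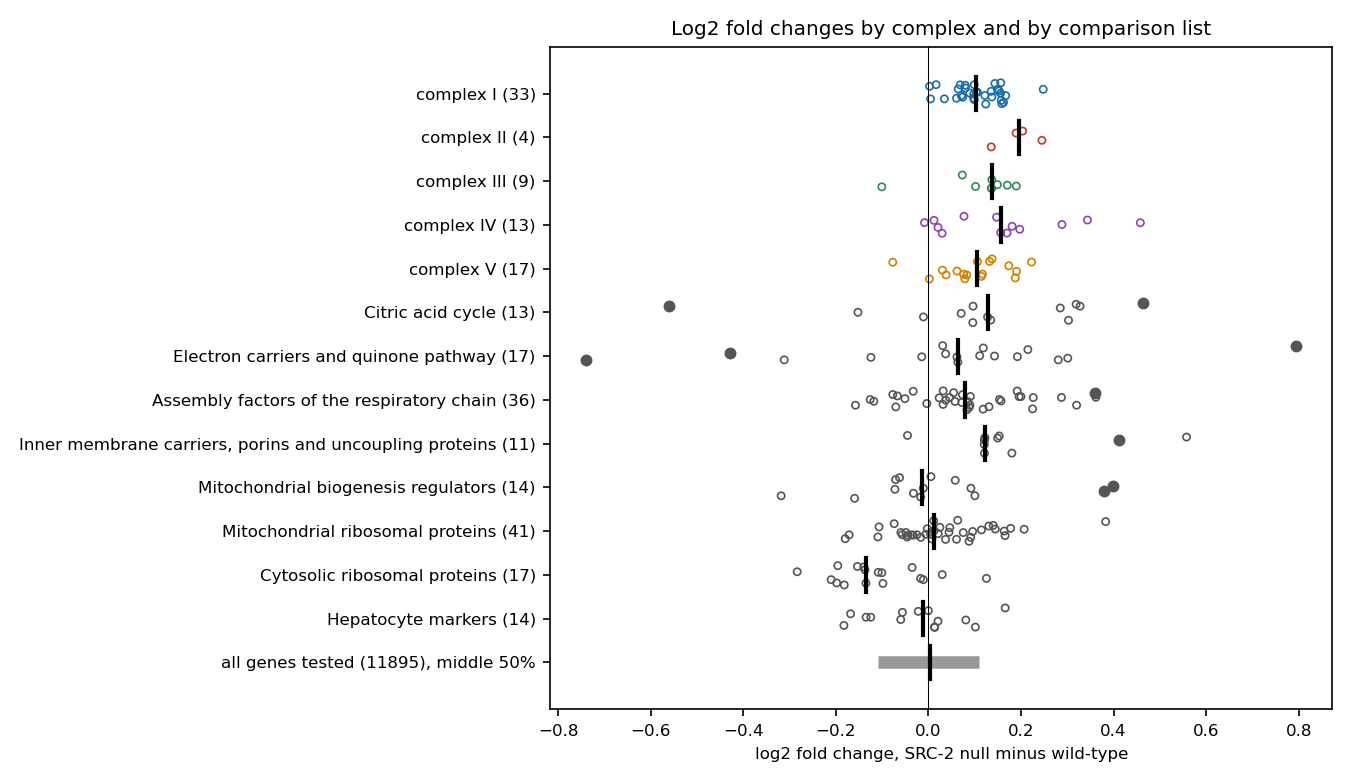
Log2 fold change (SRC-2 null minus wild-type, horizontal axis) of each tested gene in the 5 complexes and in 8 comparison lists, with filled points for genes called by limma at an adjusted p under 0.05, a black bar at each median and, in the bottom row, the middle 50% of all 11895 tested genes as a grey bar. The points of the complexes are all open and lie mostly right of 0, while the cytosolic ribosomal proteins have 2 of 17 points right of 0.

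Kupffer cell markers, of the macrophages resident in liver, moved with genotype at the same time. All 17 tested read lower on every null array than on any wild-type array, limma called 16 of them, and the mean level over the 17 was 7.94 to 8.04 on the wild-type and 6.92 to 6.97 on the null arrays. In a bulk sample, fewer cells of a type and less RNA per cell cannot be told apart. Of 10 endothelial markers 1 was called, Flt1, higher in null liver (limma adjusted p = 0.0431, above 0.05 with any of the arrays removed), and of 10 stellate cell and matrix markers limma called 0 (3 had an unadjusted p under 0.05), with median log2 fold changes of -0.004 and -0.083. The part of a change in cell composition in the small differences of the respiratory chain genes was not tested.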

How the data were processed

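The values are the authors' deposited log2 expression values, 1 column per array for 6 arrays, made with RMA per the submitters' processing notes. For its version, chip description and build, the sources used here give nothing. RMA forces equal distributions on the arrays and summarises each set's probes, which compresses folds of dim genes. Array medians were 4.17 to 4.24, no 2 arrays held identical values, and the number of arrays limits the precision. Detection calls were not used. Gene symbols came from the platform annotation, and all 180 member probe sets matched GRCm38.p6 by gene number.

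Groups followed the labels. One probe set per gene (highest mean) and genes with a mean of 4.21 or more were tested with limma 3.58.1 in R 4.3.3 (lmFit, eBayes, two-sided, genotype as the only term) with Benjamini-Hochberg adjustment over 11895 genes. Intervals are limma's 95% intervals. The procedure was run on simulated data with independent noise on each array, unlike the deposited arrays, where replicate 3 deviations were shared between genotypes. Its recovery of small changes is not given here. Deviations of same-numbered arrays correlated at 0.18, 0.203 and 0.517 over genes, which pairs them by the rule used (each above 0.1), although replicates 1 and 2 correlated as well crosswise (0.166 and 0.206). A replicate block was therefore fitted as an alternative. Promoters were RefSeq's, searched on both strands.

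Genes named are members called, in each complex those with the 3 smallest p, the 3 largest differences and the highest and lowest signal, tissue isoforms with partners, the Atp5g genes, members whose probe sets disagree, and up to 3 per comparison list. Others were named after their values were seen. Members, lists and tests were chosen with earlier results of these data known. Promoter search and plots used Python 3.11.15, with matplotlib 3.10.9 for the plots.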

Additional observations from a re-analysis of the deposited data

How the results depend on the processing

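The count of 0 called members held under every alternative except the block of replicate 3 against replicates 1 and 2, with 2 called, both higher (Cox7c and Ndufaf3), and 983 genes called over all. The replicate block, which takes the pairing by replicate number as given, called 832 genes, 0 of them members. It kept the calls printed here for single genes of the comparison and marker lists. Its results for list genes that did not pass in the main fit, such as Ucp1 and Mdh2, are not given. With replicates 1 and 2 only 329 genes were called, and 275 to 438 when single arrays were left out, against 556. Members with an unadjusted limma p under 0.05 numbered 8 in the main fit, 15 in the replicate block and 19 with the replicate 3 block. They numbered 21 with eBayes set to trend and robust, and 3 to 12 when single arrays were left out. The matching shares of all genes at that unadjusted p are not given for these alternatives. Adjusted limma calls over all genes also rose, from 4.67% in the main fit to 6.99% in the replicate block. They were 8.26% with the replicate 3 block and 6.14% with trend and robust. Whether the member counts rose more than those of all genes was not tested. In the fits that left out 1 array, 0 members were called, the median over members was 0.08 to 0.15 and the medians of complexes I to V were 0.057 to 0.15, 0.17 to 0.21, 0.0995 to 0.17, 0.088 to 0.21 and 0.064 to 0.14. With every probe set tested the median of complex II was 0.15. Cyclic loess, chosen after seeing the data, gave a median of 0.12 over members and quantile normalization 0.13, with 82 and 83 of 87 above 0.

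Of 55 named members, 42 of them named by the rule, 38 kept their sign in each of the 17 alternatives that gave them a value. With the mean of all probe sets the signs turned for Atp5g2 (0.025), Cox6a1 (0.051), Cox7a2l (-0.019), Cox8c (-0.043), Ndufb11 (-0.011) and Uqcrq (0.075). Without _s_at and _x_at sets they turned for Cox7a2l (-0.030), Ndufab1 (-0.020) and Uqcrq (0.22), and with every set for Cox6a1 (0.051), Cox7a2l (-0.030), Ndufb11 (-0.0071) and Uqcrq (0.087). Quantile normalization turned Cox6a1 (0.010) and Ndufaf2 (0.0010). Replicates 1 and 2 alone turned Cox4i1 (-0.016), Cox6c (-0.0086), Cox7a2l (-0.031), Cox8c (-0.063), Ndufa1 (-0.017), Ndufaf2 (0.029), Ndufaf5 (0.078) and Ndufb11 (-0.031). Leaving out single arrays gave -0.023 to 0.084 for Cox4i1, -0.10 to 0.060 for Cox6a1, -0.040 to 0.099 for Cox7a2l, -0.13 to 0.10 for Cox8c, -0.0066 to 0.22 for Ndufa13, -0.053 to 0.17 for Ndufa4, -0.0067 to 0.076 for Ndufa7, -0.0017 to 0.17 for Ndufb1, -0.024 to 0.053 for Ndufb11, -0.029 to 0.068 for Cox6c, -0.0995 to 0.099 for Ndufa1, -0.081 to 0.091 for Ndufa6, -0.073 to 0.062 for Ndufaf2 and -0.12 to 0.080 for Ndufaf5. The cause was not tested.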
